A study of Homo sapiens with 12 samples.

Results

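HuH-7 cells, a line grown from a human hepatocellular carcinoma, were given 42 µM SLMP53-2 or the solvent DMSO alone for 24 h, and their RNA was measured on Agilent microarrays of 1 colour. The comparison takes the 4 arrays whose titles name 42 µM and the 4 DMSO arrays, 8 of the 12 arrays of the series, and every gene probe of the design. The cells on the other 4 arrays were given 28 µM for the same time. SLMP53-2 is a small molecule that was selected for its activity in cells with mutant p53, and the question here is which genes outside the ATF4, cell cycle and sterol programmes changed with the higher dose. A further label of the 42 µM arrays says 48 µM for the same arrays, and the dose is called 42 µM throughout. All groups share the genotype of HuH-7, whose p53 carries the Y220C change. Each group holds 4 biological replicates of this single cell line, and an array reads the mean over a culture, so that a change in every cell and a change in a share of the cells cannot be told apart.

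A cell meets a foreign small molecule through several sensors. The aryl hydrocarbon receptor (AhR) is a transcription factor that is activated by many planar aromatic compounds and switches on the enzymes that oxidise them. Lysosomes break down and recycle macromolecules, and the Rag GTPases on their surface pass amino acid signals to mTORC1, the kinase complex that drives cell growth. Hepatocytes and the tumours derived from them also secrete most plasma proteins and run the urea cycle, and these liver functions change under stress and inflammation.

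Between 69.5% and 76.6% of the gene spots were well above background on the DMSO arrays and between 71.3% and 78.5% at 42 µM. The labelled cell type was checked with 10 hepatocyte markers, whose summed level was 17.48 to 17.61 on the log2 scale on DMSO and 17.46 to 17.66 at 42 µM. ALB, which encodes albumin, read 16.02 to 16.38 on DMSO and 15.91 to 16.25 at 42 µM, whereas the probe of the liver transcription factor HNF4A was dim, at 6.68 to 6.79 on DMSO and 6.56 to 6.80 at 42 µM. The cholangiocyte keratin KRT19 was bright in these cells, at 15.79 to 16.10 on DMSO and 15.70 to 15.87 at 42 µM, and the summed level of 3 cholangiocyte markers was 15.81 to 16.11 on DMSO and 15.72 to 15.88 at 42 µM. The summed level of 3 leukocyte markers was 9.54 to 10.15 on DMSO and 9.0 to 9.64 at 42 µM. LYZ, lysozyme, the brightest of the 3, had a log2 fold change of −1.18 ± 0.35 (adjusted p = 0.0953). CD14 had one of −0.29 (adjusted p = 0.40), and CD68 went the other way with 0.36 (adjusted p = 0.188). The part of these markers in the results below was not tested. The ranges of T cell, endothelial and fibroblast marker sums overlapped, and PTPRC, ACTA2 and KRT7 were not above the detection filter.

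At 42 µM limma called 381 genes higher and 346 lower, which is 1.57% and 1.43% of the 24251 gene names tested. A gene was called when its Benjamini-Hochberg adjusted p was below 0.05 and its log2 fold change was at least 0.6 up or down, and a value after ± is a standard error (SE). The median size of the called log2 fold changes was 0.95 for the higher and 0.92 for the lower genes, and the median over all genes was −0.02. All 4 arrays at 42 µM lay above all 4 DMSO arrays for 1440 genes (5.94%) and below them for 1702 (7.02%), which include 376 of the genes called higher and 345 of those called lower. When arrays were scaled by their 75th percentile and not quantile normalized, 256 genes were called higher and 421 lower, so that the higher genes were 37.8% of the calls in place of 52.4%. With Agilent's processed signal scaled in that way they were 40.6%, with 201 higher and 294 lower.

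The number of calls changed with single arrays, while the sizes varied less. Without DMSO replicate 2, or without 42 µM replicate 2, limma called 0 genes in either direction, with 740 higher and 583 lower, or 664 and 498, with the same fold limit and a p below 0.05 before adjustment. With all arrays these were 766 and 582. The smallest adjusted p of limma was 0.0506 without DMSO replicate 2 and 0.0519 without 42 µM replicate 2, just above the limit. After adjustment, omitting DMSO replicate 1 left 116 lower calls and still fewer higher ones, omitting DMSO replicate 3 left 197 higher and 177 lower, and omitting DMSO replicate 4 left 126 and 140. Among the treated arrays, omitting replicate 1 gave 220 and 184, and omitting replicate 3 gave 232 and 235. With the slide as a fixed block limma called 0 genes higher and 1 lower, beside 786 and 586 before adjustment. A rule of size and list membership chose 132 genes for description, of which 110 were called. All 110 calls were lost under each of these 3 settings. When any 1 of the 8 arrays was left out, the log2 fold change of each of the 110 kept between 0.76 and 1.20 times its size, and with the slide block between 0.83 and 1.16 times. For all 110 the 2 groups of 4 arrays did not overlap, which fixes the sign of the difference within each of the 3 slides that hold an array of both groups. The sizes of those differences, like the sizes with an array left out, come from the arrays that chose the genes. They describe scatter and are not separate evidence. Of the 110 genes 45 have other tested probes, all of them dimmer. Another probe was called in the same direction in 9 of the 45, and an opposite sign was seen in 4, namely MYC, DUSP8, PSME3 and SLC12A7. In 19 every other probe had less than 50% of the printed log2 fold change, as with CSTA (0.44 for its other probe), ASAH1 (0.24), CLCN6 (0.11), F7 (0.15), DTX3 (0.12 and 0.30) and KNG1 (−0.09 and −0.10).

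**Figure D1:**
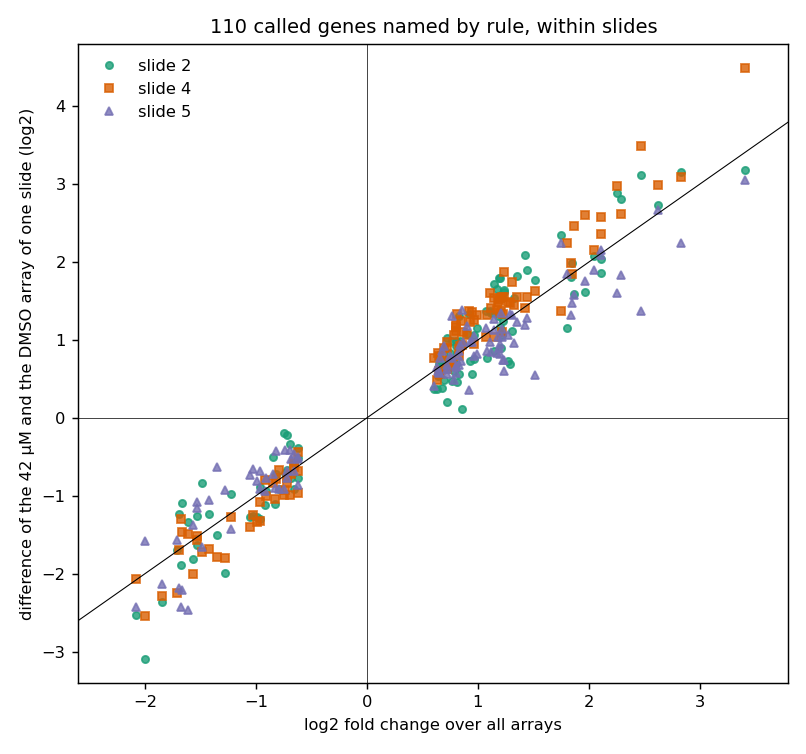
Each of the 110 called genes is plotted 3 times, once for every slide that holds an array of both groups, with its log2 fold change over all arrays on the horizontal axis and the difference between the 42 µM and the DMSO array of that slide (log2) on the vertical axis. The line marks equal values, and the plot shows how far the sizes scatter around it. The groups of these genes were known not to overlap, and so the sign of each difference was fixed by the choice of genes.

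Genes of ATF4, of the cell cycle and of sterol and fatty acid synthesis made up 67 of the higher and 129 of the lower calls. Of 76 measured ATF4 targets 47 rose and 1 fell (median log2 fold change 1.07), of 271 cell cycle and replication genes 128 fell (median −0.79), and of 64 sterol and fatty acid genes 20 rose (median 0.61). The other 314 genes called higher and 217 called lower are the subject of what follows, ordered by pathway from 60 lists that hold 1834 measured genes. The 217 still hold S phase and mitosis genes that the lists of those 3 programmes lack, such as H2AC16, H4C15, H3C15, H4C9 and PIMREG. Outside the lists of those 3 programmes 68 genes of the 60 lists rose and 32 fell. The median of a list is given beside its counts for most lists, and no list was tested as a set. Every count is to be read beside the 1.57% of all genes called higher and the 1.43% called lower.

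**Figure D2:**
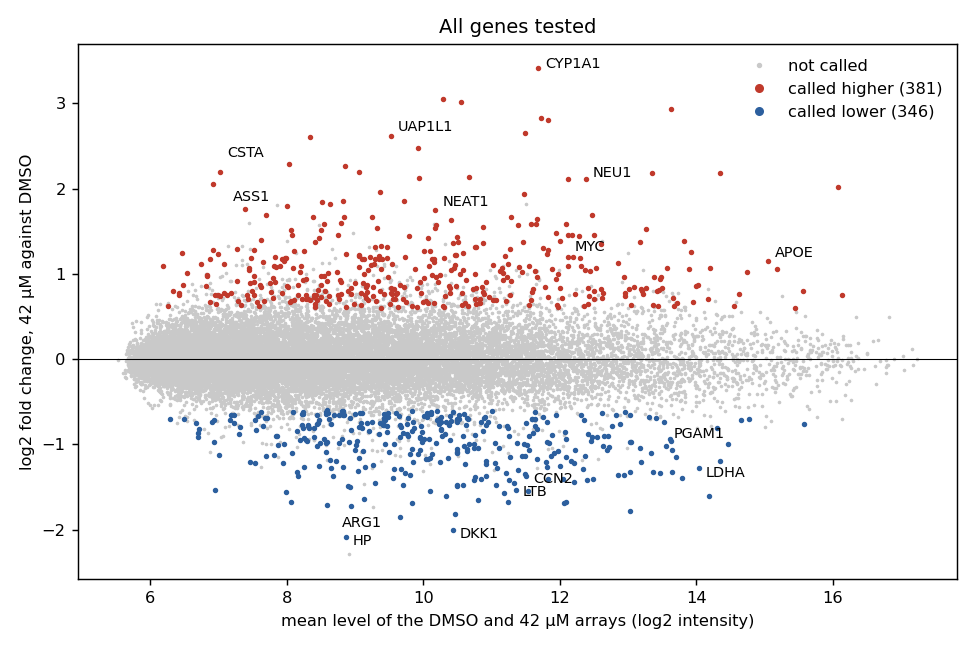
Every gene tested is a point, placed by its mean log2 intensity over the 8 arrays and by its log2 fold change at 42 µM against DMSO. Red points are the 381 genes called higher, blue points the 346 called lower and grey points the rest, and CYP1A1 lies highest, at 3.41.

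The largest increase of any gene was that of CYP1A1, the cytochrome P450 that AhR switches on most strongly and that oxidises aromatic compounds. Its log2 intensity read 10.22, 10.17, 9.71 and 9.82 on the DMSO arrays and 13.01, 14.21, 13.22 and 13.12 at 42 µM. Every treated array lay far above every DMSO array, and 42 µM replicate 2 was the highest. The log2 fold change was 3.41 ± 0.58 (adjusted p = 0.0139), a 10.6-fold increase, with 3.19, 4.49 and 3.05 within the 3 slides. TIPARP, an ADP-ribosyltransferase that restrains AhR and is itself an AhR target, read 10.06, 9.94, 10.09 and 10.06 on the DMSO arrays and 11.22, 11.41, 10.76 and 10.74 at 42 µM. Its DMSO arrays were tightly grouped and all treated arrays were higher, with a log2 fold change of 0.99 ± 0.21 (adjusted p = 0.0258).

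Of 12 measured genes of the AhR battery, 3 rose (25%, against 1.57% of all genes) and 0 fell, the third being the amino acid transporter SLC7A5, which is also an ATF4 target. The median of the list was 0.35. CYP1B1, a related P450, had all treated arrays above all DMSO arrays and a log2 fold change of 1.01 with an adjusted p of 0.0883, and CYP1A2 one of 0.42 (adjusted p = 0.574). The receptor gene AHR itself read 10.24, 10.52, 10.35 and 10.24 on the DMSO arrays and 11.37, 11.04, 10.33 and 10.59 at 42 µM. Its groups overlapped at 42 µM replicate 3, and its log2 fold change was 0.49 ± 0.23 (adjusted p = 0.321). Classic battery members NQO1, which reduces quinones, and ALDH3A1, an aldehyde dehydrogenase, had log2 fold changes of −0.04 and −0.15 that did not pass. The AhR complex binds the letters GCGTG, called the xenobiotic response element, and these stand on either strand within 250 bases before and 50 after the start of 36.3% of the 27305 RefSeq promoters and of 46.4% of the promoters of genes tested. They were present in 7 of the 10 AhR battery promoters that the table holds, and in all 3 of the called members. The 60 bases around the match of CYP1A1 (minus strand, chr15:74725553-74725612) and around the first of the 2 matches of TIPARP (plus strand, chr3:156674355-156674414, both in GRCh38.p14) are shown because these genes lead the response, 5′ to 3′ with the match in capitals and in TIPARP on the opposite strand.
CYP1A1: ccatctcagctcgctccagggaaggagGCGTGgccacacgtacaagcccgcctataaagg
TIPARP: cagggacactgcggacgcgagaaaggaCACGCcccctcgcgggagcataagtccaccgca
Counted from the start of transcription, the capitals begin at position −57 in CYP1A1 and at −208 in TIPARP, whose other match begins at −142. A match in these letters is a description and not a binding site.

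Of 48 measured lysosomal genes 7 rose (14.6%, against 1.57% of all genes) and 0 fell. The list had a median of 0.39, and on the single treated arrays it was 0.25, 0.53, 0.45 and 0.41 above the DMSO mean. In 19 of the 48 genes (39.6%, against 5.94% of all genes) all treated arrays lay above all DMSO arrays, and in 1 below. NEU1 encodes the lysosomal sialidase that removes sialic acid from glycoproteins, and read 11.54, 11.33, 11.18 and 11.24 on the DMSO arrays and 13.29, 13.54, 13.43 and 13.49 at 42 µM. The treated arrays were close to each other and well above DMSO, with a log2 fold change of 2.11 ± 0.35 (adjusted p = 0.0131). CTSA, the protective protein that holds NEU1 in an active complex, had one of 0.84 ± 0.17 (adjusted p = 0.0192). The cysteine protease CTSL changed by 0.83 ± 0.13 (adjusted p = 0.0112) and the mannosidase MANBA by 1.06 ± 0.20 (adjusted p = 0.0168) on the log2 scale.

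The nutrient-sensing genes of the lysosomal surface were part of this group. RRAGD, a Rag GTPase, read 7.33, 8.02, 7.70 and 7.90 on the DMSO arrays and 9.66, 9.33, 8.58 and 9.44 at 42 µM, with 42 µM replicate 3 the lowest of the treated arrays but still above DMSO. Its log2 fold change was 1.51 ± 0.37 (adjusted p = 0.0434). RRAGC, the other Rag GTPase of the same class, read 10.07 to 10.40 on DMSO and 11.23 to 11.89 at 42 µM, without overlap, and changed by 1.36 ± 0.29 (adjusted p = 0.0258). FLCN, folliculin, acts on RagC and RagD at the lysosome, and its log2 levels were 8.59 to 9.08 on DMSO and 9.71 to 10.25 at 42 µM, a change of 1.17 ± 0.23 (adjusted p = 0.0192). The transcription factors that drive lysosomal genes did not pass: TFEB had a log2 fold change of −0.37, TFE3 of −0.08 and MITF of −0.14. NPC2, which carries cholesterol out of the lysosome, had its treated arrays all above DMSO and a log2 fold change of 1.25, with an adjusted p of 0.062.

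TFEB and its relatives bind E-boxes with the letters CACGTG. Of 33 lysosomal genes with an entry in the promoter table, 10 (30.3%) held these letters in the window, against 7.43% of all promoters and 9.39% of those of genes tested. Among the 5 called members with an entry, NEU1, RRAGC and CTSA held it. Their windows of 60 bases in GRCh38.p14 show where the letters stand, in capitals and 5′ to 3′ along each gene, for NEU1 (minus strand, chr6:31862915-31862974), RRAGC (minus strand, chr1:38859852-38859911) and CTSA (plus strand, chr20:45891266-45891325).
NEU1: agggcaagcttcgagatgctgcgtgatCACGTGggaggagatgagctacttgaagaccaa
RRAGC: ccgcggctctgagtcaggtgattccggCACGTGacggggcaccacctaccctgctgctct
CTSA: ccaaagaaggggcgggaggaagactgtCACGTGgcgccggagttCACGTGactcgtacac
The capitals begin at position −126 in NEU1, at −112 in RRAGC and at −42 and −25 in CTSA. FLCN and CTSL held none in the window.

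The V-ATPase pumps protons into the lysosome. None of its 16 measured subunits was called, although in 7 of them all treated arrays lay above all DMSO arrays (43.8%, against 5.94% of all genes) and the median log2 fold change was 0.30. ATP6V1G1 came closest, with log2 levels of 12.68 to 13 on DMSO and 13.24 to 13.54 at 42 µM and a change of 0.57 ± 0.13 (adjusted p = 0.0333), just under the fold limit. Of 42 autophagy genes 3 rose (7.14%, against 1.57% of all genes), and 1 of these was the ATF4 target SQSTM1. The median of the autophagy list was 0.09. OPTN, a receptor that brings ubiquitinated cargo to autophagosomes, read 10.58 to 10.83 on DMSO and 11.31 to 12.19 at 42 µM and changed by 1.11 ± 0.23 (adjusted p = 0.0229). WDR45, a phosphoinositide-binding protein of autophagosome formation, changed by 0.70 ± 0.12 (adjusted p = 0.0155) on the log2 scale.

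**Figure D3:**
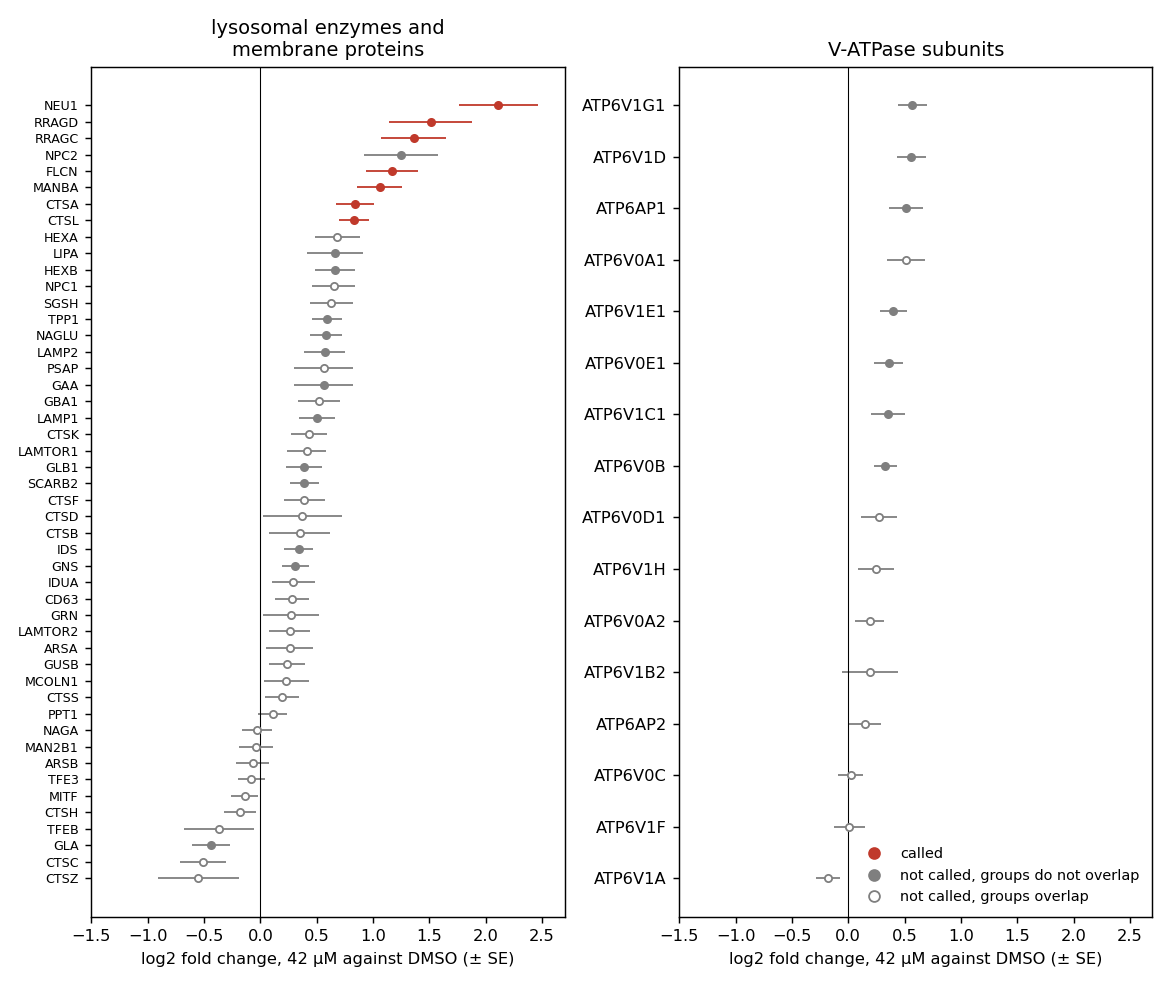
Log2 fold change at 42 µM against DMSO with its SE for 48 genes of lysosomal enzymes and membrane proteins (left) and 16 V-ATPase subunits (right), each sorted by size. Red points are called, filled grey points are not called but have groups of arrays that do not overlap, and open points have overlapping groups. NEU1 is highest at 2.11, and 38 of the 48 and 15 of the 16 points lie above 0.

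Few secreted liver proteins were called, but single members moved far. The largest decrease of any called gene was that of HP, haptoglobin, which binds free haemoglobin in plasma. Its log2 intensity read 9.46, 10.19, 9.79 and 10.17 on the DMSO arrays and 7.64, 7.73, 7.76 and 8.16 at 42 µM, with every treated array below every DMSO array. The log2 fold change was −2.08 ± 0.37 (adjusted p = 0.0157), and −2.53, −2.06 and −2.43 within the 3 slides. SAA4, a constitutive serum amyloid of high-density lipoprotein, changed by −0.91 ± 0.19 (adjusted p = 0.0253) and was detected on 3 of the 4 treated arrays. These were the 2 called of 21 acute phase genes, whose median log2 fold change was −0.08. FGB, a fibrinogen chain, had one of 0.31 (adjusted p = 0.595).

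Among 32 genes of coagulation and complement 3 fell (9.38%, against 1.43% of all genes) and 1 rose (3.12%, against 1.57%), with a median of −0.01. KNG1, the precursor of bradykinin, read 9.95 to 10.11 on DMSO and 8.76 to 9.40 at 42 µM and changed by −0.99 ± 0.21 (adjusted p = 0.0264). C4BPA, an inhibitor of complement, read 8.67 to 8.84 on DMSO and 7.35 to 8.10 at 42 µM and changed by −0.96 ± 0.23 (adjusted p = 0.0395), and C8A, a subunit of the membrane attack complex, changed by −0.91 ± 0.21 (adjusted p = 0.032). Coagulation factor F7 went the other way, from log2 levels of 8.59 to 9.01 on DMSO and 9.29 to 9.77 at 42 µM, a change of 0.78 ± 0.17 (adjusted p = 0.0305). None of these 4 had overlapping groups of arrays.

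APOE, an apolipoprotein that carries cholesterol to cells, was the 1 called of 19 apolipoprotein and lipoprotein assembly genes. It read 14.54, 14.40, 14.51 and 14.49 on the DMSO arrays and 15.34, 16.05, 15.53 and 15.60 at 42 µM, so that the DMSO arrays were tightly grouped and all treated arrays higher, with 42 µM replicate 2 the highest. Its log2 fold change was 1.15 ± 0.15 (adjusted p = 0.0112). NR0B2, the orphan receptor SHP that represses bile acid synthesis, was the 1 called of 23 liver transcription factor genes and read 9.87 to 10.31 on DMSO and 11.27 to 11.62 at 42 µM, a change of 1.31 ± 0.18 (adjusted p = 0.0112). ALB, AFP and TF, which encode albumin, alpha-fetoprotein and transferrin, had log2 fold changes of −0.06, 0.37 and 0.10 that did not pass. HNF4A had one of −0.04 for its brightest probe.

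In the urea cycle the 2 genes called moved in opposite directions. ASS1, which joins citrulline and aspartate, read 6.99, 6.97, 7.20 and 7.24 on the DMSO arrays and 8.40, 9.44, 8.82 and 8.97 at 42 µM. Its DMSO arrays were all dim and close together, and its treated arrays were all higher, a log2 fold change of 1.80 ± 0.27 (adjusted p = 0.0112). ARG1, the arginase that makes urea from arginine, read 9.95, 10.90, 10.54 and 10.91 on the DMSO arrays and 8.55, 8.26, 8.77 and 9.34 at 42 µM. DMSO replicate 1 was the lowest control and 42 µM replicate 4 the highest treated array, and the groups did not overlap. The log2 fold change of ARG1 was −1.85 ± 0.33 (adjusted p = 0.0155), and −2.36, −2.28 and −2.13 within the slides. The other 35 of 37 measured genes of the urea cycle and amino acid catabolism were not called, and the list's median was −0.01.

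Few glycolysis genes were called. Of 29 genes of glucose uptake and glycolysis 3 fell (10.3%, against 1.43% of all genes) and 1 rose (3.45%, against 1.57%), 7 had all treated arrays below all DMSO arrays (24.1%, against 7.02%), and the median log2 fold change was −0.18. PGAM1, phosphoglycerate mutase, read 13.98, 13.95, 14.15 and 14.20 on the DMSO arrays and 12.94, 12.90, 13.29 and 13.05 at 42 µM. All treated arrays lay below all DMSO arrays by more than the spread within either group, with a log2 fold change of −1.02 ± 0.20 (adjusted p = 0.0184). LDHA, which makes lactate, had a log2 fold change of −1.28, and of its other 2 probes the dimmer had −1.25 (adjusted p = 0.163) and the brighter −0.29 (adjusted p = 0.73), so that neither passed. SLC2A1, the glucose transporter GLUT1, read 10.31 to 11.06 on DMSO and 9.37 to 10.05 at 42 µM and changed by −0.82 ± 0.19 (adjusted p = 0.0384). The glycolytic enzymes TPI1 and PGK1 had non-overlapping groups and log2 fold changes of −0.78 and −0.78 with adjusted p-values of 0.0754 and 0.0658. ENO2, the enolase of neurons, rose instead, by 0.87 ± 0.16 (adjusted p = 0.0171).

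Hypoxia target genes, some of which serve glycolysis, did not move one way. Of 32 measured, 4 rose and 2 fell, and 2 of the 4 are also ATF4 targets. These were 12.5% and 6.25%, against 1.57% and 1.43% of all genes, and the median was −0.06. VEGFA, one of the ATF4 targets that rose, had a log2 fold change of 1.18 (adjusted p = 0.0184) for its brightest probe. Its dimmer probes had 0.485 (adjusted p = 0.0623) and 0.484 (adjusted p = 0.0953), which did not pass. BHLHE40, a transcriptional repressor of the clock and of hypoxia, read 6.92, 7.79, 7.81 and 7.89 on the DMSO arrays and 9.69, 9.80, 9.11 and 9.15 at 42 µM. DMSO replicate 1 was the lowest control, and every treated array was clearly higher. Its log2 fold change was 1.84 ± 0.34 (adjusted p = 0.0164). Its relative BHLHE41 changed by 1.07 ± 0.20 (adjusted p = 0.0166). The collagen-modifying enzymes PLOD2 and LOX fell by smaller amounts, with log2 fold changes of −0.66 (adjusted p = 0.0493) and −0.62 (adjusted p = 0.0427).

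Lipid enzymes outside synthesis changed gene by gene. LPIN1, the phosphatidic acid phosphatase that makes diacylglycerol, read 9.50 to 10.18 on DMSO and 10.82 to 11.59 at 42 µM and changed by 1.43 ± 0.29 (adjusted p = 0.0207). ASAH1, the acid ceramidase of the lysosome, read 8.12, 8.42, 8.74 and 8.49 on the DMSO arrays and 9.56, 9.84, 9.56 and 9.68 at 42 µM. Its treated arrays were higher by more than the range within either group, with a log2 fold change of 1.22 ± 0.20 (adjusted p = 0.0131). G0S2, an inhibitor of triglyceride lipase, was not well above background on any DMSO array, and its level at 42 µM was at least 2.3-fold higher (adjusted p = 0.0171). ACSL1, which activates long-chain fatty acids, rose by 0.95 (adjusted p = 0.0413), and choline kinase CHKB by 0.77 (adjusted p = 0.0289). MGLL, monoacylglycerol lipase, fell with a log2 fold change of −0.66 (adjusted p = 0.0252). Enzymes that make NADPH included IDH1 (0.64, adjusted p = 0.0421) and the mitochondrial malic enzyme ME3 (0.72, adjusted p = 0.0152), which both rose on the log2 scale.

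Among ligands of the EGF receptor 2 rose. Besides AREG, amphiregulin, with a log2 fold change of 2.47, BTC, betacellulin, read 6.21, 6.31, 6.30 and 5.92 on the DMSO arrays and 7.27, 7.71, 7.16 and 7.09 at 42 µM. All treated arrays were above DMSO, where the probe was detected on 2 of 4 arrays, and the log2 fold change was 1.12 ± 0.27 (adjusted p = 0.0434). These were the 2 called of 16 ligand and ERBB receptor genes (12.5%, against 1.57% of all genes called higher), whose median was 0.21. Of 35 immediate early genes and MAPK feedback genes 7 rose, ATF3 of the ATF4 list among them, and 2 fell. These were 20% and 5.71%, against 1.57% and 1.43% of all genes, and the list's median was 0.07. PHLDA1, a growth-factor-induced pleckstrin homology protein, read 9.95 to 10.25 on DMSO and 11.21 to 11.72 at 42 µM and changed by 1.32 ± 0.25 (adjusted p = 0.0164). MYC, the growth-promoting transcription factor, read 11.44, 11.56, 11.68 and 11.39 on the DMSO arrays and 13.19, 13.03, 12.39 and 12.26 at 42 µM. The treated arrays were all higher, 42 µM replicates 1 and 2 most, and the log2 fold change was 1.20 ± 0.24 (adjusted p = 0.0216), whereas 2 dimmer MYC probes had −0.19 and 0.13. KLF4, DUSP8, JUN and DUSP4 rose by 0.85, 0.80, 0.65 and 0.62. DUSP6, the phosphatase of ERK, and IER3 fell, with log2 fold changes of −0.65 and −0.74, and FOS and EGR1 had values of −0.99 and −0.76 with overlapping arrays.

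The WNT antagonist DKK1 had the second largest decrease of the called genes. It read 10.99, 11.56, 11.46 and 11.70 on the DMSO arrays and 8.61, 8.92, 9.98 and 10.20 at 42 µM. The treated arrays spread widely, replicates 1 and 2 lowest, and yet all lay below DMSO, with a log2 fold change of −2.00 ± 0.39 (adjusted p = 0.0178) and within-slide differences of −3.09, −2.54 and −1.58. FZD7, a WNT receptor, changed by −0.75 ± 0.14 (adjusted p = 0.016). No other of 36 WNT genes was called, and the list's median was −0.08. CCN2, the matrix protein CTGF and a classic target of YAP, read 12.51, 12, 12.12 and 12.07 on the DMSO arrays and 10.57, 10.34, 11.38 and 11.02 at 42 µM, with no overlap, and changed by −1.35 ± 0.28 (adjusted p = 0.0237). It was the 1 called of 25 Hippo pathway and YAP target genes (median −0.10).

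Of 21 NOTCH genes 2 rose and 2 fell (9.52% each, against 1.57% and 1.43% of all genes), with a median of 0.05. HES4, a NOTCH target repressor, rose by 1.24 ± 0.28 (adjusted p = 0.0338), and DTX3, a ubiquitin ligase of the deltex family, by 0.84 (adjusted p = 0.0145). LFNG, the glycosyltransferase that modifies NOTCH, fell, reading 9.41 to 9.64 on DMSO and 8.01 to 8.77 at 42 µM, a change of −1.06 ± 0.23 (adjusted p = 0.0273). The ligand JAG1 fell as well, with a log2 fold change of −0.62 (adjusted p = 0.0486). In IGF and insulin signalling 3 of 31 genes rose (9.68%, against 1.57% of all genes) and 0 fell, with a median of 0.13. IGF2R, which carries lysosomal enzymes and IGF2 to the lysosome, read 9.05, 9.56, 9.52 and 9.70 on the DMSO arrays and 10.43, 11, 10.63 and 10.85 at 42 µM. The treated arrays were clearly higher than any DMSO array, and its log2 fold change was 1.27 ± 0.24 (adjusted p = 0.0176). FOXO3, a transcription factor held back by AKT, rose by 0.81 (adjusted p = 0.0303), and the adaptor GRB10, which dampens insulin receptor signals, by 0.75 (adjusted p = 0.0178).

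**Figure D4:**
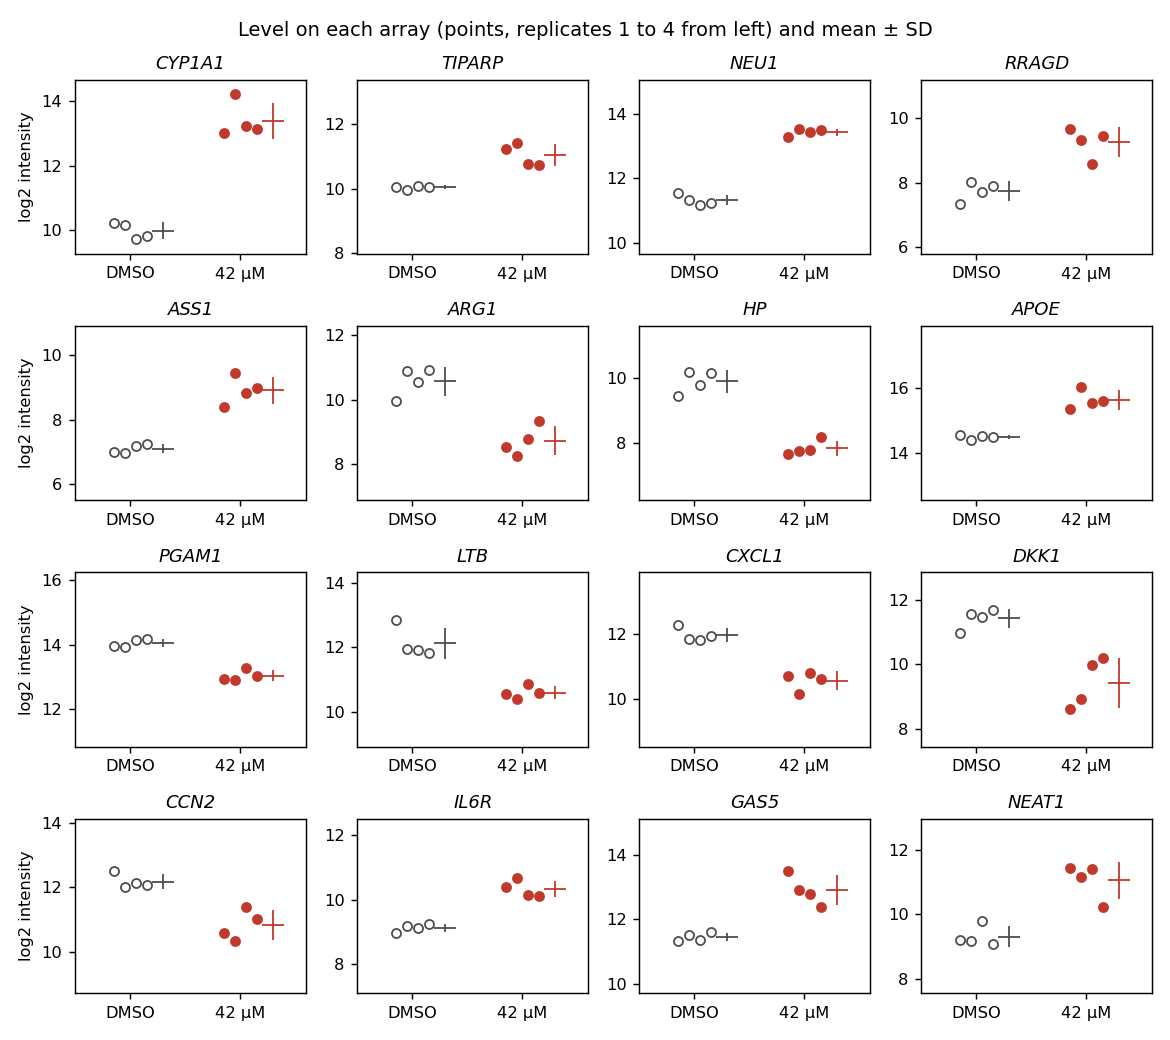
Log2 intensity on each of the 4 DMSO arrays (open points) and 4 arrays at 42 µM (filled points, replicates 1 to 4 from left) for 16 genes, with the mean and SD of each group as a cross beside the points. The 2 groups do not overlap in any of the 16 panels, whose vertical axes differ in position but span the same length, and CYP1A1 shows the widest gap.

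In the list of chemokines and targets of NF-κB the only calls were lower. Of 35 measured, 3 fell (8.57%, against 1.43% of all genes) and 0 rose, 14 had all treated arrays below all DMSO arrays (40%, against 7.02% of all genes) and 1 above, and the median log2 fold change was −0.19. LTB, lymphotoxin beta, a member of the TNF family, read 12.85, 11.94, 11.90 and 11.81 on the DMSO arrays and 10.55, 10.39, 10.86 and 10.57 at 42 µM. DMSO replicate 1 was the highest array, and the treated arrays lay below all others, with a log2 fold change of −1.53 ± 0.28 (adjusted p = 0.016). CXCL1, a chemokine for neutrophils, read 11.82 to 12.29 on DMSO and 10.13 to 10.79 at 42 µM. Its treated arrays were all clearly lower, replicate 2 the lowest, with a log2 fold change of −1.42 ± 0.33 (adjusted p = 0.0345) and within-slide differences of −1.24, −1.69 and −1.05. CX3CL1, fractalkine, changed by −0.82 ± 0.18 (adjusted p = 0.0303). NFKBIA, which holds NF-κB in the cytoplasm and is its target, had a log2 fold change of −0.44 that did not pass, and the subunit RELA one of 0.01. CXCL12, a chemokine outside the list, was called higher, with a log2 fold change of 0.75 (adjusted p = 0.0313), whereas its dimmer probe had −0.17.

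Among 32 cytokine receptor and SOCS genes 3 rose (9.38%, against 1.57% of all genes) and 1 fell (3.12%, against 1.43%), with a median of 0.04. IL6R, the interleukin 6 receptor, read 8.96, 9.20, 9.13 and 9.24 on the DMSO arrays and 10.41, 10.67, 10.15 and 10.12 at 42 µM, without overlap, and changed by 1.20 ± 0.24 (adjusted p = 0.0184). STAT6, the mediator of interleukin 4 signals, and SOCS2, a feedback inhibitor of growth hormone signals, rose by 0.86 (adjusted p = 0.0413) and 0.65 (adjusted p = 0.0313). IL17RB, a receptor of interleukin 25, read 8.78, 8.57, 8.46 and 8.40 on the DMSO arrays and 7.43, 7.18, 7.14 and 7.56 at 42 µM. All treated arrays lay below DMSO, with a log2 fold change of −1.22 ± 0.18 (adjusted p = 0.0112). Of 38 interferon response genes 1 was called, the exonuclease ISG20, with a log2 fold change of 0.80 ± 0.16 (adjusted p = 0.0215).

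The lists of heat shock and proteasome genes had negative medians. Of 40 genes listed as cytosolic heat shock genes 2 fell (5%, against 1.43% of all genes) and 0 rose, and the median log2 fold change was −0.16. The list also holds chaperones of mitochondria, such as HSPD1 and HSPE1. HSPA1A, the inducible Hsp70, whose near-identical copy HSPA1B the probe may also read, was at 12.97, 12.45, 12.44 and 12.14 on the DMSO arrays and 11.63, 11.60, 11.73 and 11.65 at 42 µM. The treated arrays were close to each other and below all DMSO arrays, and the change was −0.85 ± 0.16 (adjusted p = 0.0176). HSPA2, the testis-enriched Hsp70, changed by −0.97 ± 0.23 (adjusted p = 0.0372). Of 39 proteasome genes, 14 had all treated arrays below all DMSO arrays and 1 above (35.9% and 2.56%, against 7.02% and 5.94% of all genes), with a median of −0.27, the most negative of the 60 lists. PSME3, the nuclear activator of the proteasome, was the 1 called lower, with −0.74 ± 0.16 (adjusted p = 0.0253) for its brightest probe and −0.27 and 0.16 for the other 2. NFE2L1, the transcription factor that drives proteasome genes, was the 1 called higher, with a log2 fold change of 0.93 ± 0.16 (adjusted p = 0.0152), and its other 3 probes had 0.09, 0.37 and 0.87 and did not pass.

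In the endoplasmic reticulum 1 of 29 chaperone and folding genes rose, DNAJC10, a disulfide reductase, which changed by 0.97 ± 0.18 (adjusted p = 0.0164). HSPA5, the chaperone BiP that rises in the classical unfolded protein response, read 11.56, 11.41, 11.28 and 11.19 on the DMSO arrays and 11.12, 11.12, 10.95 and 11.14 at 42 µM. The treated arrays lay slightly below DMSO and the log2 fold change was −0.28 ± 0.13 (adjusted p = 0.321) for this probe, whereas a dimmer probe of HSPA5 had 0.66 (adjusted p = 0.602), so that the direction turns with the probe. ERN1, the sensor IRE1, had one of 0.82 (adjusted p = 0.13) for its brightest probe, and −0.41, −0.02 and 0.10 for its other 3, which did not pass either. Of 35 translation factors 2 rose, EIF4B, a cofactor of the helicase eIF4A, by 0.72 ± 0.17 (adjusted p = 0.0361), and the ATF4 target EIF4EBP1.

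Several lists had negative medians with few or no calls. The 51 respiratory chain and ATP synthase genes had a median of −0.17 and 0 calls, with 14 below all DMSO arrays (27.5%, against 7.02% of all genes) and 0 above. The 38 mitochondrial ribosome and transcription genes had a median of −0.14, and MRPL17, a protein of the large subunit, was called (−0.68 ± 0.17, adjusted p = 0.0435). Splicing factors had a median of −0.23 over 40 genes with 0 calls, 8 of them (20%) below all DMSO arrays. Tubulins and microtubule proteins had a median of −0.24 over 22 genes, with 8 (36.4%) below all DMSO arrays. MAP1B, which stabilises microtubules, moved against these, reading 7.72 to 8.52 on DMSO and 9.21 to 9.76 at 42 µM, a change of 1.23 ± 0.24 (adjusted p = 0.0198).

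**Figure D5:**
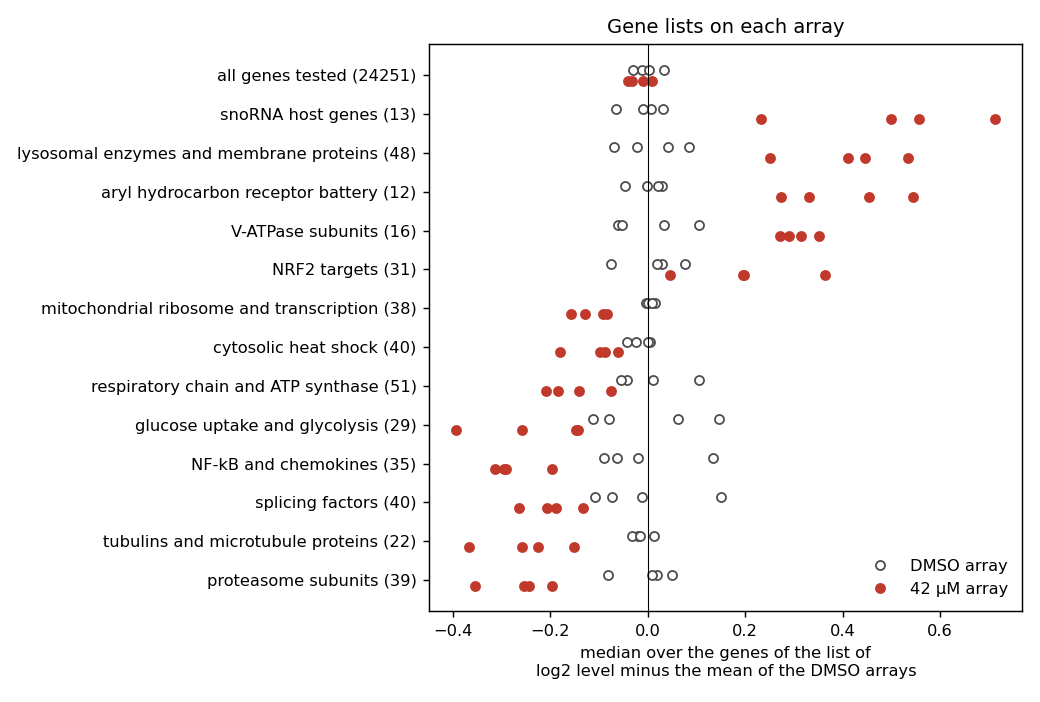
For all genes tested and 13 gene lists, with the number of genes in brackets, the median over the genes of the log2 level on an array minus the mean of the DMSO arrays, with open points for the 4 DMSO arrays and filled points for the 4 arrays at 42 µM. The treated arrays lie to the right of the DMSO arrays for snoRNA host, lysosomal, AhR and V-ATPase genes and to the left for NF-κB and proteasome genes, while for all genes both groups lie near 0.

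NRF2 is the transcription factor of the antioxidant response. Of its 31 measured targets 3 rose (9.68%, against 1.57% of all genes) and 0 fell, with a median of 0.21. MAFG, the small MAF protein that pairs with NRF2, rose by 0.83 ± 0.20 (adjusted p = 0.0403), SRXN1, which restores oxidised peroxiredoxins, by 0.64 ± 0.13 (adjusted p = 0.0241), and ABCC3, an exporter of bile acids and conjugates, by 0.68 ± 0.15 (adjusted p = 0.0316). HMOX1 and NQO1, widely used markers of NRF2, had log2 fold changes of 0.33 and −0.04 that did not pass, and GPX2, a glutathione peroxidase, one of −1.19 (adjusted p = 0.0657). The antioxidant response element TGACNNNGC was present in 6 of 22 promoters of the list and in 13.6% of all promoters and 14.8% of those of genes tested, and 0 of the 2 called members with an entry held it. Of 26 genes of peroxidases and related enzymes 1 fell, the methionine sulfoxide reductase MSRB3 (−0.62 ± 0.14, adjusted p = 0.032).

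Of 40 drug-metabolizing enzymes 2 rose (5%, against 1.57% of all genes). SULT2A1, which sulfates steroids and bile acids, read 8.42, 8.69, 8.38 and 8.56 on the DMSO arrays and 9.33, 9.71, 9.55 and 9.80 at 42 µM. All treated arrays were higher than DMSO by more than the range within either group, and the change was 1.08 ± 0.21 (adjusted p = 0.0185). ALDH1A1, which makes retinoic acid, changed by 0.83 ± 0.17 (adjusted p = 0.021). The list's median was 0.06.

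Host genes of small nucleolar RNAs (snoRNAs) and related long noncoding RNAs had the highest median of the 60 lists, 0.55 over 13 measured genes. Of these 4 rose (30.8%, against 1.57% of all genes) and 0 fell. GAS5, a noncoding RNA that accumulates when growth stops or translation is blocked, read 11.33, 11.51, 11.35 and 11.61 on the DMSO arrays and 13.51, 12.90, 12.80 and 12.38 at 42 µM. The groups were clearly apart, with 42 µM replicate 1 highest, and the log2 fold change was 1.45 ± 0.26 (adjusted p = 0.016). NEAT1, the scaffold of nuclear paraspeckles, read 9.20, 9.16, 9.77 and 9.08 on the DMSO arrays and 11.43, 11.14, 11.41 and 10.21 at 42 µM. Its treated arrays were higher than DMSO, replicate 4 the least, with a log2 fold change of 1.75 ± 0.35 (adjusted p = 0.0198). EPB41L4A-AS1 changed by 1.19 ± 0.26 (adjusted p = 0.0291) and SNHG17 by 0.66 ± 0.14 (adjusted p = 0.0282).

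Among 38 genes listed as p53 targets outside ATF4 control 3 rose (7.89%, against 1.57% of all genes) and 0 fell. The median was −0.07, and whether ATF4 acts on these genes was not tested. GADD45A, a stress sensor of growth arrest, read 10.19, 10.49, 10.99 and 10.85 on the DMSO arrays and 11.54, 12.47, 11.83 and 11.84 at 42 µM. The treated arrays were all higher than DMSO, with a log2 fold change of 1.29 ± 0.22 (adjusted p = 0.0146). TP53INP1, a stress-induced nuclear and autophagy protein, changed by 1.22 ± 0.26 (adjusted p = 0.0255), and TNFRSF10B, the death receptor DR5, by 0.65 ± 0.14 (adjusted p = 0.0252). MDM2, the ubiquitin ligase of p53, and BAX, the pore-forming BCL2 protein, had log2 fold changes of 0.24 and −0.33 that did not pass. In 6 of the 38 genes all treated arrays lay above all DMSO arrays and in 6 below (15.8% each, against 5.94% and 7.02% of all genes). The former include CDKN1A, which encodes p21, at 0.31 (adjusted p = 0.16). The latter include TRIAP1 at −0.47 (adjusted p = 0.0414), under the fold limit. In the BCL2 family 3 of 18 genes rose (16.7%, against 1.57% of all genes), with a median of 0.03. These were BMF (1.96) and PMAIP1 (0.92), which promote death, and BCL2L2 (0.90 ± 0.22, adjusted p = 0.0418), which opposes it. TNFRSF12A, the receptor of TWEAK, was called with TNFRSF10B among 33 genes of death receptors, caspases and inhibitors, and changed by 0.81 ± 0.15 (adjusted p = 0.0176).

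Transport and junction genes gave single calls in either direction. ITPR3, a calcium channel of the endoplasmic reticulum, read 8.63, 8.65, 8.80 and 8.89 on the DMSO arrays and 9.78, 10.18, 10 and 9.86 at 42 µM. The 2 groups were tight and far apart, with a log2 fold change of 1.21 ± 0.16 (adjusted p = 0.0112). CLCN6, a chloride and proton exchanger of late endosomes, rose by 1.14 (adjusted p = 0.0451), and the phosphate transporter SLC20A1 and the potassium chloride cotransporter SLC12A7 by 0.97 (adjusted p = 0.0423) and 0.77 (adjusted p = 0.0352). The potassium channel KCNK5 and the taurine transporter SLC6A6 fell, with log2 fold changes of −0.72 (adjusted p = 0.0242) and −0.72 (adjusted p = 0.0223). GJB1, the hepatocyte gap junction protein connexin 32, read 7.49 to 7.86 on DMSO and 6.71 to 7.16 at 42 µM and changed by −0.79 ± 0.13 (adjusted p = 0.0139), and CGN, the tight junction protein cingulin, by −0.69 (adjusted p = 0.0346). NR1D2, a repressor of the circadian clock, and CHD2, a chromatin remodeller, were the single calls of their lists and rose by 0.72 (adjusted p = 0.0358) and 0.60 (adjusted p = 0.0414).

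Some of the largest changes belonged to no list. UAP1L1, an enzyme related to the maker of UDP-N-acetylglucosamine, read 8.49, 8.17, 8.18 and 7.98 on the DMSO arrays and 10.72, 11.18, 10.85 and 10.58 at 42 µM. All treated arrays were far higher than any DMSO array, with a log2 fold change of 2.62 ± 0.41 (adjusted p = 0.0113). CSTA, an inhibitor of cysteine cathepsins, read 6.98, 6.94, 6.68 and 6.92 on the DMSO arrays and 9.73, 9.29, 8.78 and 8.87 at 42 µM. Its DMSO arrays were dim and its treated arrays clearly brighter, with a log2 fold change of 2.29 ± 0.40 (adjusted p = 0.0152). RCN1, a calcium-binding protein of the endoplasmic reticulum, and RASD1, a Ras-like protein induced by dexamethasone, rose by 2.26 ± 0.39 (adjusted p = 0.0143) and 2.11 ± 0.32 (adjusted p = 0.0112). HOXD1, a homeobox transcription factor, fell from log2 levels of 8.64 to 9.24 on DMSO and 6.84 to 7.55 at 42 µM, a change of −1.67 ± 0.26 (adjusted p = 0.0113). SLC6A14, a broad amino acid transporter, changed by −1.53 ± 0.31 (adjusted p = 0.0206) on the log2 scale with detection on 2 of 4 treated arrays.

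Among the 12 largest decreases, 4 were histone genes whose mRNA is made in S phase, H2AC16, H4C15, H3C15 and H4C9, with log2 fold changes of −1.71, −1.69, −1.67 and −1.61, and another was the mitotic regulator PIMREG at −1.57. The transcript BC007606 changed by −1.48. Among the 12 largest increases, 4 probes have no gene name here, ENST00000518311, XLOC_l2_014504, ENST00000526512 and A_23_P57836, with log2 fold changes of 2.83, 2.05, 1.86 and 1.85. On DMSO the probe XLOC_l2_014504 was detected on 1 of 4 arrays.

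In 14 of the 60 lists no gene was called by limma. Besides the V-ATPase, respiratory chain and splicing lists these were plasma carrier proteins, nucleotide synthesis, iron and heme, metallothioneins and zinc transporters, cytosolic ribosomal proteins, ribosome biogenesis, COPI, COPII and Golgi trafficking, the TGF-beta pathway, mesenchymal genes, integrins, and actin and SRF targets. Their members of largest change did not pass, as with the matrix-associated S100A4 at −1.10 (adjusted p = 0.0512), the iron hormone HAMP at 0.58 (adjusted p = 0.159) and CTPS1, which makes CTP, at −0.58 with an adjusted p of 0.0434 but under the fold limit. The 56 cytosolic ribosomal protein genes had a median of 0.08 and a highest log2 fold change of 0.42.

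The arrays at 28 µM were compared with those at 42 µM in the same model, and limma found 0 genes with an adjusted p below 0.05 between the doses (628 at an unadjusted p below 0.05). At 28 µM against DMSO limma called 0 genes as well, beside 653 with the same fold limit and a p below 0.05 before adjustment. For the leading genes the log2 fold changes at 28 µM, read against the same DMSO arrays, were 2.65 for CYP1A1, 1.59 for NEU1, 1.83 for UAP1L1, −1.30 for HP, −1.09 for DKK1 and −1.13 for LTB. These genes were chosen for their size at 42 µM, so that no order of the doses can be read from these values.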

How the data were processed

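The authors deposited Agilent Feature Extraction output for 12 arrays of 1 colour, with linear intensity values per spot (mean signal, and the median of the local background) that are not normalized. They also deposited a matrix of normalized log2 values, used here as an alternative. Reading was done in R 4.3.3 with version 1.17.8 of data.table. Without control spots and outlier flags, intensities were corrected by the Edwards method and quantile normalized with limma 3.58.1, as in the study's methods, and spots of a probe were averaged on the log2 scale. Probes well above background on at least 2 arrays of a group were kept, 33467 of 41000. The lowest correlation of an array with the authors' values was 0.9991 across probes. RefSeq accessions (GRCh38.p14) named 68.5% of the probes, and the name of the array design was used otherwise.

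The fit with limma (lmFit, eBayes) held all 12 arrays in 3 groups and was two-sided, with Benjamini-Hochberg adjustment over all probes tested. The probe with the highest mean level stands for a gene. In a simulation of this comparison with 200 probes shifted by 1.5 (log2), 93.5% were recovered, with 12 false calls. Its noise was independent between probes and arrays and held no slide effects. The shift was larger than the median called sizes of 0.95 and 0.92, so that the recovery does not apply to smaller changes. Named are the 12 largest increases and the 12 largest decreases among called genes whose groups do not overlap outside the ATF4, cell cycle and sterol lists, at most 4 called members of each list or its largest change, and defining members of lists. Other genes are named to show further members of a list, with their values known. The lists and members were chosen with earlier results of these data known. Slides were read from the barcode in the header of the deposited Feature Extraction output. Motifs were searched on both strands in promoter windows of 250 bases before and 50 after the start, which RefSeq gave for 13416 of the genes tested, and the E-box and the cAMP response element read the same on either strand. A gene not well above background on all arrays of a group is given as a bound against the lowest signal well above background. The number of arrays limits the precision. Summaries and plots used Python 3.11.15, pandas 2.3.3, numpy 2.4.6 and matplotlib 3.10.9.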

Additional observations from a re-analysis of the deposited data

Results flagged for a closer look

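In 14 of 290 groups of 4 arrays examined, a single array stood apart, the gap to its nearest neighbour divided by the group's range being above Dixon's 95% limit. Chance gives about 1 such group in 20. DMSO replicate 1 was lowest for ALDH1A1 (gap ratio 0.873) and BHLHE40 (0.894) and highest for CX3CL1 (0.845), LTB (0.882) and S100A4 (0.868). DMSO replicate 2 was highest for HNRNPM (0.842) and VEGFA (0.922), and lowest for NDUFB10 (0.949), a respiratory chain gene that read 7.89 there and at least 13.12 on the other DMSO arrays. DMSO replicate 3 was lowest for H2AC16 (0.974). DMSO replicate 4 was highest for RASD1 (0.856) and lowest for TNFRSF10B (0.834). At 42 µM the lowest arrays were replicate 3 for HSPA5 (0.885), replicate 2 for SLC2A1 (0.846) and replicate 1 for TIMM44 (0.87).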

How the results depend on the processing

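Against 381 genes called higher and 346 lower, other settings gave 201 higher (processed signal scaled to the 75th percentile), 0 higher and 1 lower (slide as a fixed block) and 172 and 139 (with a limit of 1 on the log2 scale). Leaving out 1 array gave between 0 and 542 higher and between 0 and 456 lower. With a replicate block 622 and 488 genes were called. The deviations of arrays with the same replicate number correlated at −0.0078, −0.462, 0.214 and 0.414 across genes, so that the numbers were not taken as pairs. The remaining settings kept both counts within 1.5 times. None of the 110 called genes named changed sign under any setting. For the fits without 1 array this was fixed by the choice of genes, whose groups do not overlap. Calls were lost, 44 with the scaled processed signal, 22 when Edwards values were scaled likewise, 23 with the mean of all probes, 77, 53 and 64 without DMSO replicates 1, 3 and 4, 53, 38 and 15 without 42 µM replicates 1, 3 and 4, 18 without 28 µM replicate 3, all 110 without replicate 2 of DMSO, without that of 42 µM and with the slide as a fixed block, and 8 or fewer under each other setting. HNF4A (0.12) and HSPA5 (0.19), which were not called, changed sign when the mean of all probes was taken, as did ALB (0.01) without DMSO replicate 2 and SAR1B (−0.06) without DMSO replicate 3, neither of them called. The medians of 13 lists kept their sign in all 25 alternatives, between 0.33 and 0.43 for lysosomal genes, 0.24 and 0.45 for AhR genes, 0.32 and 0.64 for snoRNA host genes, 0.17 and 0.36 for the V-ATPase, −0.29 and −0.12 for NF-κB genes, −0.45 and −0.23 for the proteasome, −0.44 and −0.15 for glycolysis, 0.13 and 0.27 for NRF2 targets, −0.45 and −0.12 for tubulins, −0.39 and −0.18 for splicing factors, −0.37 and −0.13 for the respiratory chain, −0.29 and −0.11 for the mitochondrial ribosome and −0.25 and −0.06 for cytosolic heat shock genes. The cause of the lost calls was not tested, and leaving out an array or adding a block leaves fewer residual degrees of freedom. Dim probes, such as those of G0S2, BTC and SAA4, are measured less well.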

Other observations

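The gene groups in this and the next paragraph were put together after their values were seen, so their counts are descriptions, to be read beside the 1.57% of all genes called higher and the 1.43% called lower. Of 63 measured replication-dependent histone genes 46 were called lower and 0 higher, and in 52 all arrays at 42 µM lay below all DMSO arrays. Their median log2 fold change was −1.29, with −1.33, −1.49 and −1.36 within the 3 slides. Probes of near-identical histone genes may read each other, so that the members cannot be read as separate measurements. Further genes of the lysosome that stand outside the list also rose, namely DPP7, a peptidase (1.05 ± 0.20, adjusted p = 0.018), SLC38A7, a glutamine exporter (1.09 ± 0.15, adjusted p = 0.0112), RAB32, a GTPase of lysosome-related organelles (1.03 ± 0.18, adjusted p = 0.0154), FNIP1, the partner of folliculin (1.09 ± 0.25, adjusted p = 0.0358), CLCN7, the chloride exchanger (0.84, adjusted p = 0.0453), GLMP (0.84, adjusted p = 0.0166) and CTNS, the cystine exporter (0.77, adjusted p = 0.0208), each as a log2 fold change. The WASH complex works on endosomes, and 2 of its 6 measured genes rose, WASHC2A by 0.93 (adjusted p = 0.0164) and WASHC2C by 0.92 (adjusted p = 0.0222), a pair of near-identical paralogs whose probes may share transcripts.

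Of 8 measured sulfotransferase genes 4 rose, SULT1C2 by 1.28 (adjusted p = 0.0282), SULT1C4 by 0.76 (adjusted p = 0.0359) and SULT2B1 by 0.75 (adjusted p = 0.0441) on the log2 scale beside SULT2A1. The median of these 8 was 0.41 and the lowest value −0.85. Of 9 fucosyltransferase genes 3 rose, FUT1 by 1.29 (adjusted p = 0.0417) and the close paralogs FUT3 and FUT5 by 1.03 (adjusted p = 0.0207) and 1.04 (adjusted p = 0.023). The median of these 9 was 0.08 and the lowest value −0.15. TNFRSF14, a receptor of the TNF family, rose by 1.67 ± 0.28 (adjusted p = 0.0142), HPN, the liver serine protease hepsin, by 1.33 ± 0.22 (adjusted p = 0.0139) and MST1, the hepatocyte growth factor-like protein that hepsin can activate, by 1.30 ± 0.26 (adjusted p = 0.0185). MDM4, the partner of MDM2 in holding p53 back, rose by 0.97 ± 0.17 (adjusted p = 0.0153). Genes that fell included SGK1, a serum- and glucocorticoid-induced kinase, by a log2 fold change of −1.30 ± 0.26 (adjusted p = 0.0208), CAVIN1, a coat protein of caveolae (−1.14 ± 0.17, adjusted p = 0.0112), CA2, a carbonic anhydrase (−1.11, adjusted p = 0.0307), and HMGA2, an oncofetal chromatin protein (−0.79, adjusted p = 0.0275).

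The letters TGATGNAA, which ATF4 dimers bind, stood in 17 of 277 promoters of genes called higher (6.14%), in 5 of 269 of genes called lower (1.86%) and in 2.12% of the promoters of genes tested. The cAMP response element TGACGTCA stood in 9 of the former (3.25%), in 18 of the latter (6.69%) and in 2.83% of those tested.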
